A study of Mus musculus with 36 samples.

Results

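Krt7, Krt8, Krt18 and Krt19, the simple epithelial keratins, were followed by RNA-seq through the differentiation of Xmas mouse embryonic stem cells (mESCs). They are 4 of the 25965 genes in the deposited table, which lists 50 keratin genes in all, and each has 1 line there. The 4 genes were selected on their levels over the time course, so the change with day is given below as a description with no test, and tests are kept for differences between labels and between lines. Xmas mESCs are female C57/Bl6 lines whose 2 X chromosomes carry different fluorescent reporters at Hprt, GFP on one and mCherry on its homologue. Cells were expanded in 2i, inhibitor medium that holds them in the naive state, and then weaned into DME HiHi, a serum medium, with RNA taken daily over 9 time points (days 0 to 8). There are 36 libraries, 4 a day, which come from lines X14 and X18, each once with the word double and once with the word single in its title. Replicates 1 to 4 of every day are X14 double, X14 single, X18 double and X18 single, and what these words stand for is not explained in the labels. The differentiation was not directed towards any cell type, and each combination of line and label is 1 culture series. Each label therefore has 2 series, 1 per line, and the tests count the days of a series as separate libraries. P-values measure the spread between libraries of only 4 culture series, not that between independent cultures of a label.

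Reads in genes ran from 612740 to 2445826 per library, with a median of 1297944. Levels are in RPKM, reads per kilobase of exon scaled to 1000000 reads. The study names the unit RPM, and the scaling to length was read from the values, which sets comparisons of level between genes but not a gene's differences between libraries. Differences are on the log2 scale on which the table was deposited, where a gene with no read carries the value of 0.9 read. At this depth 3 reads, used as the floor of detection, correspond to 0.769 RPKM of Krt8 in X14 double of day 0 and to more in shallower libraries. The X14 libraries of day 0 went against their labels on X-linked expression. The median log2 difference of X-linked genes from their day 0 mean, less that of autosomal genes, was -0.78 in the library labelled X14 double and 0.51 in the one labelled X14 single, against 0.70 in X18 double and -0.47 in X18 single. From day 1 on it lay between -0.02 and 0.57 in libraries labelled double and between -0.63 and -0.21 in those labelled single. Comparisons with day 0 use all 4 day 0 libraries whatever their label, and label differences of later days have their own terms, so neither rests on the day 0 labels.

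Keratins form intermediate filaments as obligate pairs of a type II and a type I chain. Krt8 (type II) and Krt18 (type I) are the first pair made in the mouse embryo, in the trophectoderm, and persist in simple, single-layered epithelia. Krt7 (type II) and Krt19 (type I) join them in many ductal, glandular and extraembryonic epithelia. The filaments are anchored at desmosomes through plakin proteins such as desmoplakin, and undifferentiated mESCs make little keratin.

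In the mouse genome (mm10) 3 of the 4 genes share a chromosome. Krt7 (ENSMUSG00000023039) spans chr15:101411043-101430313 on the plus strand, Krt8 (ENSMUSG00000049382) spans chr15:101996711-102004342 on the minus strand and Krt18 (ENSMUSG00000023043) spans chr15:102028216-102032026 on the plus strand. Krt8 and Krt18 are transcribed away from each other, with 23873 bases and no other gene of the table between them, whereas 25 genes lie between Krt7 and Krt8. Krt18 is the one type I gene of the cluster on this chromosome. Krt19 (ENSMUSG00000020911) lies with other type I genes at chr11:100140810-100148665 on the minus strand. The 250 bases before the RefSeq start site (GRCm38.p6, the same assembly as mm10) are printed for the 3 genes for which the RefSeq table holds a promoter, since these genes of 1 chromosome all rose. The Krt7 window is chr15:101412153-101412402, inside the gene span of the table, the Krt8 window is chr15:102004343-102004592 and the Krt18 window is chr15:102027966-102028215. Each is written 5′ to 3′ on the strand of its gene, and capitals mark CACCTG, an E-box that repressors of the Snail and Zeb families can bind.
Krt7: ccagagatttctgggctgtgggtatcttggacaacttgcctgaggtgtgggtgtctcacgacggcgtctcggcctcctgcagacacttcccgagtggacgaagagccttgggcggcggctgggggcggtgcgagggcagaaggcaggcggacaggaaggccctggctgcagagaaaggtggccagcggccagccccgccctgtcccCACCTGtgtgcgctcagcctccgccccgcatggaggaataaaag
Krt8: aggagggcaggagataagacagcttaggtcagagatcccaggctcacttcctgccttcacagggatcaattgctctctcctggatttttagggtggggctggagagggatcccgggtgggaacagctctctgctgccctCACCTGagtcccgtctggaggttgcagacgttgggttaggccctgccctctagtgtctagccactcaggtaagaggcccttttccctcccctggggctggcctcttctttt
Krt18: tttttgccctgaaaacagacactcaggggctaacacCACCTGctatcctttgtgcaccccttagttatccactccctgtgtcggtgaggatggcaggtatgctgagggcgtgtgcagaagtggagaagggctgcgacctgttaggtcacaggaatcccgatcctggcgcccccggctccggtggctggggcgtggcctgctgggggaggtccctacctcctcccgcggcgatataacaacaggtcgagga

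CACCTG, searched on both strands, was found once in each of the 3 windows, with its first base at position -44 in Krt7, -111 in Krt8 and -214 in Krt18 counted back from the start site, and 17.29% of 32536 windows of the same length hold it. It overlapped none of the other motifs searched. GGGCGG, the core of a GC box, occurred 4 times in Krt7 and in neither of the others, and 32.97% of windows hold it. GCCNNNGGC, an AP-2 motif, occurred at 2 positions in Krt7, the first of which overlaps a GGGCGG, and at 1 in Krt18, against 13.82% of windows. GATAAG, a motif of Gata factors, occurred in Krt8 alone, against 6.424% of windows. TATAAA and TGANTCA, the latter an AP-1 motif, were in none of the 3 windows and in 12.31% and 6.728% of all windows. These are matches of letters, not sites shown to be bound.

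All 4 keratins had between 0 and 11 reads in each day 0 library, near or below the floor of detection, and were abundant on day 8. Krt18 ranked 10th, Krt8 31st, Krt19 112th and Krt7 1179th among the 25965 genes by mean RPKM on day 8. Reads of the 4 genes made up 0.00115% ± 0.00067 (SD, n = 4) of the reads in genes at day 0. By day 4 this share was 0.0111% ± 0.0024, a day later 0.0591% ± 0.0036 and by day 8 0.434% ± 0.151. In bulk RNA, more cells that make keratin and more keratin RNA per cell cannot be told apart. The rule for the day of first rise was the first day from which, on every later day too, all 4 libraries lay above the highest day 0 library. By it the order was Krt19 (day 2), Krt8 and Krt18 (both day 4) and Krt7 (day 6). Single libraries bear on this order. Without X18 single, the highest of day 0 for Krt7, Krt7 rose on day 4, without X14 double Krt18 rose on day 2, and without either of them Krt19 rose on day 1. Of the 14612 genes tested, 0.411% had their first rise on day 2, and the days 4 and 6 took 2.24% and 5.71%.

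**Figure D1:**
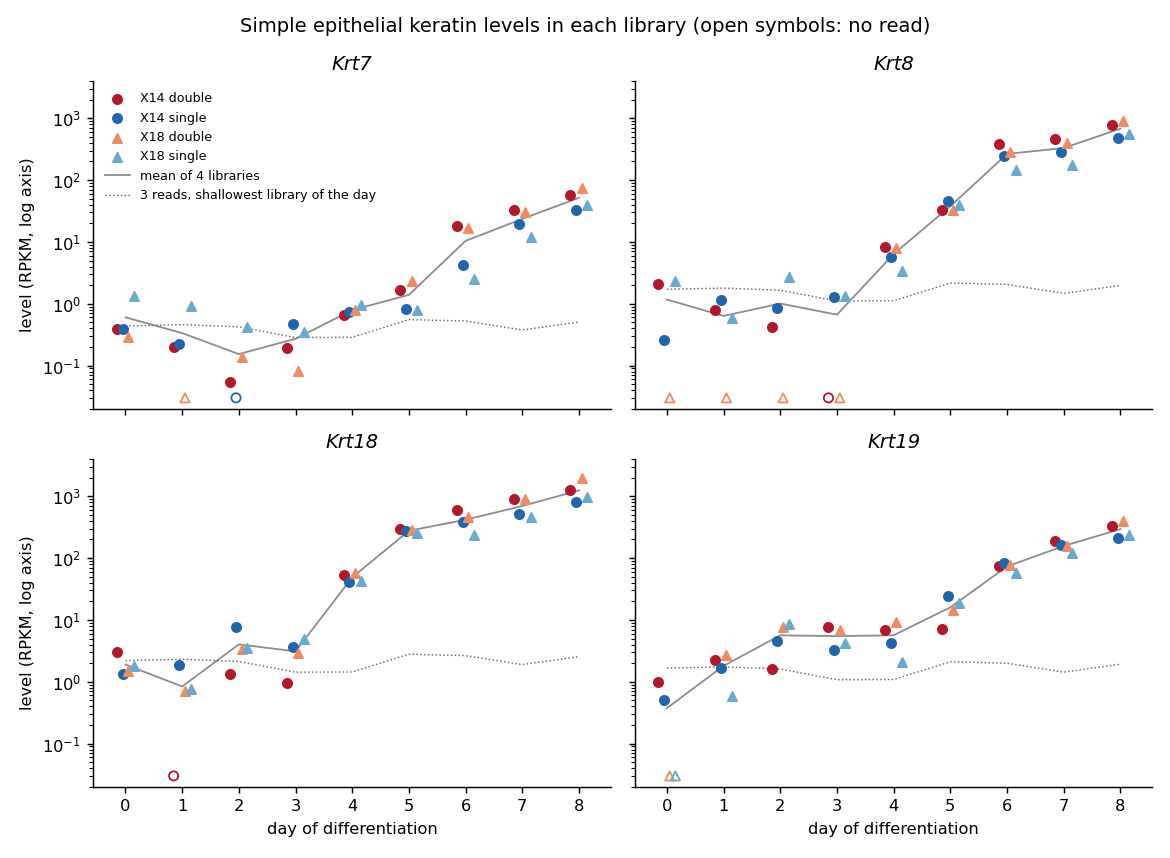
Level of each simple epithelial keratin (RPKM, log axis) against the day of differentiation, with 1 symbol per library (circles X14, triangles X18, red shades double, blue shades single), open symbols at the foot for libraries with no read, a grey line through the mean of 4 libraries and a dotted line for the level of 3 reads in the shallowest library of the day. From day 4 for Krt8 and Krt18 and from day 6 for Krt7 all libraries lie above all of day 0, while Krt19 holds a plateau from day 2 to day 4 before a second rise.

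Krt19, the smallest keratin and a type I chain, was the earliest. On day 0 it had 0.998 RPKM in X14 double, 0.499 in X14 single and no read in either X18 library, which is 0 to 4 reads. On day 2 the 4 libraries had 1.62, 4.61, 7.74 and 8.57 RPKM in the order of replicates 1 to 4, from 8 to 16 reads each. The mean then stayed at 5.47 ± 2.04 RPKM on day 3 and 5.65 ± 3.18 on day 4 (SD, n = 4). A second rise took it to 16.0 ± 7.1 RPKM by day 5 and, over the next 2 days, to 73.3 ± 10.5 and 157 ± 27. On day 8 it had 332 RPKM in X14 double, 213 in X14 single, 398 in X18 double and 233 in X18 single, a log2 difference from day 0 of 8.97.

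Krt8 and Krt18, which pair with each other, had the same day of first rise but climbed differently. Krt18 had 5 to 14 reads in every library of day 2, above the floor, but 2 to 14 on day 3. Krt8 first reached 3 reads in all libraries on day 4. Krt18 had 2.97, 1.32, 1.47 and 1.83 RPKM on day 0 in replicates 1 to 4 and 52.8, 41.6, 58.3 and 42.4 on day 4. On day 5 it had 294, 279, 282 and 251 RPKM (277 ± 18.5, SD, n = 4). Its day 5 mean was 5.67 times that of day 4, and the later daily steps were 1.51, 1.67 and 1.79 times. On day 8 it reached 1243, 797, 1970 and 968 RPKM, a log2 difference from day 0 of 9.35.

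Krt8 had 2.05, 0.257, 0 and 2.37 RPKM on day 0 and 8.19, 5.73, 8.11 and 3.42 on day 4 in replicates 1 to 4. Its steep phase was longer, with daily steps in the mean of 5.95 times to day 5 and 6.999 times to day 6. Every library of day 6 (385, 248, 282 and 145 RPKM) lay above every library of day 5, which had 32.4 to 46.5 RPKM. The next step, to day 7, was 1.25 times, and the libraries of the 2 days overlapped. On day 8 it had 776, 481, 908 and 550 RPKM, a log2 difference from day 0 of 9.52.

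Krt7, the second type II chain, was the latest and the lowest. It had 0.292 to 1.33 RPKM on day 0, from 2 to 11 reads, and 0.789 ± 0.123 on day 4 (SD, n = 4). On day 6 the libraries labelled double had 18.05 and 16.77 RPKM and those labelled single 4.20 and 2.55. On day 8 it had 58.2 RPKM in X14 double, 32.6 in X14 single, 75.8 in X18 double and 40.2 in X18 single, a log2 difference from day 0 of 6.63. Its RPKM was set over 7049 bases of exon merged from 5 transcripts, of which the longest has 4094, so its level per length is lower than it would be over a single transcript. On day 8 Krt18 was above Krt8 within each library but their ranges overlapped, whereas the ranges of Krt8, Krt19 and Krt7 did not overlap one another.

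The rise by culture differed from the order above in 3 of the 4 genes. A culture was counted from the day on which it stayed above all day 0 libraries with more than 3 reads. For Krt8 all 4 cultures rose on day 4. For Krt18 both cultures labelled single rose on day 2, with 7.77 RPKM in X14 and 3.55 in X18, and both labelled double on day 4. X18 double had 3.42 RPKM of Krt18 on day 2, from 5 reads as in X18 single. It missed the rule only by 2.88 RPKM on day 3, against 2.97 in the highest day 0 library. For Krt7 both cultures labelled double rose on day 5, with 1.66 and 2.30 RPKM, and both labelled single on day 6. For Krt19 X18 single rose on day 2, with 8.57 RPKM, and the other 3 cultures on day 1, with 1.69 to 2.69 RPKM. The early calls rest on few reads: 5 and 14 for Krt18 on day 2 in the single cultures, 9 and 26 for Krt7 on day 5 in the double cultures, and 5 or 6 for Krt19 on day 1.

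The ratio of Krt18 to Krt8 fell in a single step. The ratio averaged 8.33 ± 2.76 on day 4 and 7.49 ± 1.53 a day later, and over the last 3 days 1.59 ± 0.04, 2.16 ± 0.36 and 1.80 ± 0.26 (SD, n = 4, ratio of RPKM). The libraries of day 5 had ratios of 9.082, 6.004, 8.501 and 6.383 in replicates 1 to 4, and those of day 6 had 1.53, 1.57, 1.63 and 1.61. The 2 days do not overlap, and the spread on day 6 was the smallest of the 5 days. With Krt7 added to Krt8 and Krt19 to Krt18, the log2 ratio of type II to type I RNA was -2.91 ± 0.23 on day 5 and -0.86 ± 0.11 on day 6 (SD, n = 4). Pairing of the proteins was not measured. Both ratios depend on the exon lengths used, which cancel between days for Krt18 over Krt8 but not for the summed type II to type I ratio.

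**Figure D2:**
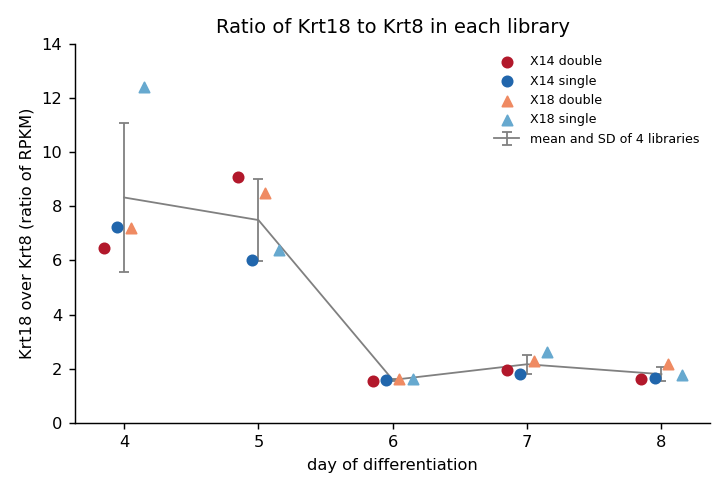
Ratio of Krt18 to Krt8 RPKM against day from day 4, when both were above the floor, with 1 symbol per library and a grey line with bars for the mean and SD of 4 libraries. The ratio lies between 6.004 and 12.4 on days 4 and 5 and between 1.53 and 2.60 on days 6 to 8 in all libraries.

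Whether the libraries labelled double and single differed in keratin level was tested with limma over all 36 libraries, adjusted over 14612 genes, with the mean difference of double minus single taken separately for days 1 to 4 and days 5 to 8. On days 5 to 8 Krt7 was higher in double by 1.39 on the log2 scale (SE 0.35, adjusted p = 0.00685), in 8 of 8 pairs of libraries of the same day and line. These pairs are the same culture series on successive days. Of all genes tested, 6.81% were called higher in double in this window and 6.37% lower, and 4.84% were higher in double in all 8 pairs. Krt7 was 1.66 and 2.30 RPKM in double against 0.817 and 0.789 in single on day 5, and 32.3 and 30.0 against 19.7 and 12.2 on day 7, so the labels did not overlap on any day from 5 to 8. Leaving out day 6, where the gap was 2.10 in X14 and 2.72 in X18, gave 1.06 (adjusted p = 0.11), and the lines taken alone gave 1.17 in X14 (adjusted p = 0.154) and 1.62 in X18 (adjusted p = 0.0597).

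Krt18 was higher in double in 8 of 8 pairs on days 5 to 8, which held for 4.84% of genes tested. Its difference of 0.66 (SE 0.26) did not pass (limma, adjusted p = 0.0957). Krt8 had a difference of 0.51 (SE 0.39, adjusted p = 0.447), with double higher in 6 of 8 pairs, and Krt19 one of 0.01 (SE 0.32, adjusted p = 0.993), with double higher in 5 of 8. With limma on voom weights of the recovered reads, Krt18 passed at 0.70 (adjusted p = 0.000397) and so did Krt8 at 0.65 (adjusted p = 0.00697). The difference was not even over these days. Both Krt8 and Krt19 were lower in double on day 5 in both lines, by 0.52 and 1.77 in X14 and by 0.24 and 0.36 in X18, and higher in double on days 7 and 8. On days 7 and 8 all 4 keratins were higher in double in all 4 pairs, which held for 19.6% of the genes tested.

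On days 1 to 4 the signs were mostly opposite and the reads few, at most 12 for Krt7, 26 for Krt8, 145 for Krt18 and 31 for Krt19 in any library. On the deposited scale Krt7 in double minus single was -1.17 (SE 0.35, adjusted p = 0.0211). This value rests on levels under the floor, since in 6 of the 8 pairs the library labelled double had 0 to 2 reads. In X14 on day 2 double had 1 read and single none, and that pair counts as lower only through the 0.9 read written for none. Both libraries held 3 reads or more in 2 pairs, those of day 4, with differences of -0.26 and -0.14. Krt18 was lower in double in 6 of 8 pairs, by -0.83 (SE 0.26, adjusted p = 0.0314), and in 3 of the 5 pairs in which both libraries held 3 reads or more. In this window 7.51% of genes tested were called lower in double and 7.17% higher. The Krt18 value came mostly from X14, with a mean of -1.55 over the 4 days against -0.12 in X18, and on voom weights it was -0.12 (adjusted p = 0.846). Krt7 on voom weights was -0.86 (adjusted p = 0.269). Without either X18 replicate Krt7 was -0.62 and did not pass. Krt8 had -0.86 (SE 0.39, adjusted p = 0.149) and Krt19 had 0.72 (SE 0.32, adjusted p = 0.139). The change in the label difference between the windows was 2.56 for Krt7 (adjusted p = 0.00273) and 1.496 for Krt18 (adjusted p = 0.019), both past the threshold, which 4.01% of genes tested passed, with the early part of both resting on these few reads. It was 1.37 for Krt8 (adjusted p = 0.176) and -0.71 for Krt19 (adjusted p = 0.45). Without either X18 replicate the Krt7 change was 1.79 and did not pass. The Krt18 change did not pass without either X14 replicate (0.91), without X18 double (2.08, adjusted p = 0.0634) or without day 6, 7 or 8 (1.42 to 1.45).

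**Figure D3:**
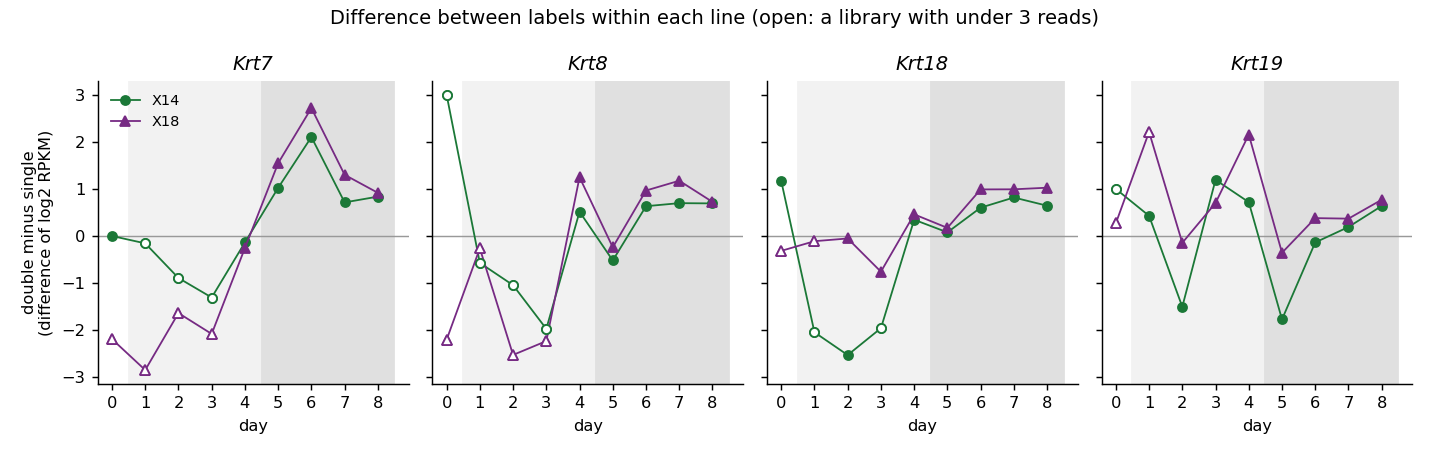
Double minus single (difference of log2 RPKM) against day for each simple epithelial keratin, in X14 (circles) and X18 (triangles), with the windows of days 1 to 4 and 5 to 8 shaded and open symbols where a library had under 3 reads (none is written as 0.9 read). The Krt7 points of days 1 to 3 are open, and from day 5 they are filled and above 0, with the highest points of 2.10 and 2.72 on day 6, and all 4 genes lie above 0 in both lines on days 7 and 8.

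The lines X14 and X18 did not differ detectably in any of the 4 keratins. On days 5 to 8 X14 minus X18 was 0.06 (SE 0.35) for Krt7, 0.24 (SE 0.39) for Krt8, 0.07 (SE 0.26) for Krt18 and 0.02 (SE 0.32) for Krt19, with limma adjusted p of 0.996 or more. In this window 0.0205% of genes tested, 3 genes, were called. On days 1 to 4 the values were -0.48, 0.08, -0.22 and -0.19 in the same order (adjusted p of 0.658 or more), against 0.00684% of genes, 1 gene, called. The change of the line difference between windows was called for 0% of genes by limma and on voom weights, with 621 genes under an unadjusted p of 0.05, and so was the label by line interaction on days 5 to 8, with 553. The interaction was -0.45 for Krt7, -0.28 for Krt8, -0.26 for Krt18 and -0.56 for Krt19, with SE of 0.45 to 0.65.

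Genes that anchor or accompany keratin filaments were compared with day 0 in 1 limma fit, a gene being called at an adjusted p under 0.05 and a change of at least 2-fold. On day 8, 23.9% of genes tested were called higher and 11.1% lower, with a median log2 difference of 0.23, and on day 4 12.2% were higher and 6.4% lower, with a median of 0.12. With quantile normalization the day 8 calls split into 2432 higher and 2393 lower in place of 3485 and 1629, and the median of all genes moved by -0.32, so differences are best read against that shift. The 4 keratins were all called on day 8 and 3 of them on day 4, from which nothing is read because this contrast chose them.

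Of the desmosome and keratin linker genes, 11 of 14 tested were higher on day 8 and none lower, with a median log2 difference of 2.83. Dsc2, a desmosomal cadherin, went from 0.404 to 24.0 RPKM (log2 difference 5.92), Dsp, the plakin that ties keratin to the desmosome, from 1.11 to 28.6 (5.50), Ppl, another plakin, from 0.218 to 7.13 (5.22) and Pkp3, a plakophilin, from 1.40 to 16.0 (3.59). Dsg2, Dst and Macf1 were not called on day 8, and Pkp1 had no read on day 0 or day 8. On day 4 Pkp2 and Ppl were called higher and Dsc2 and Dsg2 lower. These day 4 counts were not stable, with 7 higher without X14 double, 5 higher and 0 lower without the X14 libraries of day 0, and 1 higher and 0 lower with only the 2 days compared. Dsp, at 0.943 RPKM on day 4 against 1.11 on day 0, was not called on day 4, the day of first rise of Krt8 and Krt18.

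Of the epithelial junction and adhesion genes, 19 of 20 were higher on day 8 and 11 already on day 4, none lower on either day, with a median of 2.81 on day 8. The 11 of day 4 became 6 without X18 double and 7 with scaling to the 75th percentile or only the 2 days compared. Cldn6, a tight junction claudin of embryonic epithelia, rose from 3.496 to 77.7 RPKM by day 4 and 183 by day 8. Esrp1, an epithelial splicing regulator, rose from 0.594 to 18.99 by day 4 and was 18.86 on day 8, and the claudins Cldn7 and Cldn3 had log2 differences of 5.001 and 4.774 on day 8. Among other intermediate filament genes, 3 of 12 were higher and 2 lower on day 8. Lmna, an A-type lamin, rose by 4.47, Prph by 2.25 and Nes by 1.68, and the neurofilament genes Nefh and Nefl fell by 3.99 and 1.60. Vim, the mesenchymal filament gene, had a log2 difference of -0.68 that was not called, and its level on day 8, 38.3 ± 17.2 RPKM (SD, n = 4), stood below those of Krt8, Krt18 and Krt19.

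**Figure D4:**
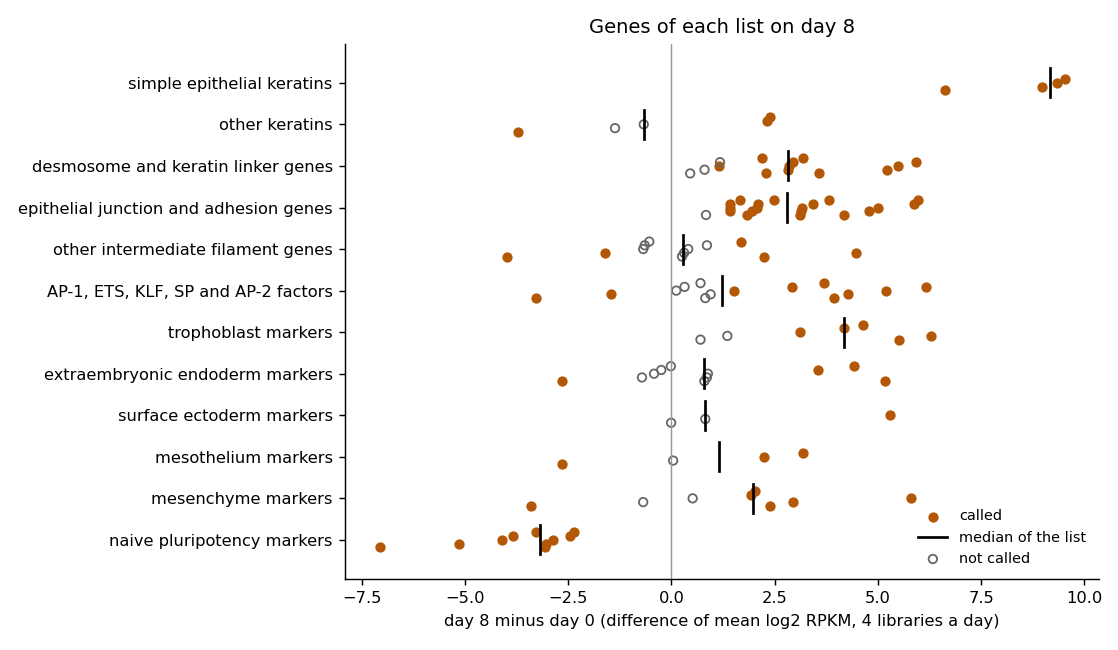
Difference between day 8 and day 0 (mean log2 RPKM, 4 libraries a day) for every tested gene of each list, filled where called and open where not, with a black bar at the median of the list. The keratin linker and the junction lists lie almost wholly to the right of 0, naive pluripotency markers wholly to the left, and the simple epithelial keratins, which were selected on this contrast, farthest to the right.

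Factors of the AP-1, ETS, KLF, SP and AP-2 families, some of which are known to act on the Krt8 and Krt18 genes, had 7 of 14 tested higher on day 8 and 2 lower (median 1.23). Fosl2, an AP-1 subunit, had at most 1 read in any day 0 library and 8.32 ± 3.89 RPKM on day 8. Ets1, Fos and Jun had log2 differences of 5.20, 4.26 and 3.94, and the pluripotency factors Klf4 and Klf5 fell by 3.28 and 1.45, the latter not called without X18 single (-1.26). Jun was called on day 4 too (2.21), whereas Ets1 and Fos were not. On days 5 to 8 Fos, Klf4 and Tfap2c were higher in double (1.51, 1.08 and 1.51, limma adjusted p = 0.00242, 0.0469 and 0.000192). Ets1 and Jun did not pass (adjusted p of 0.578 and 0.704).

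Among the remaining 46 keratins, 27 had no read in any library, 13 never passed 3 reads in a library, and 5 were tested. Their summed level was 3.31 to 16.7 RPKM on day 0, when the 4 simple epithelial keratins summed to 1.76 to 6.42, and 2.94 to 7.35 RPKM on day 8 against 1523 to 3352. Of their 970 reads over the 36 libraries Krt42 had 480 and Krt17 had 256. Krt42 fell from 6.91 RPKM on day 0 to 0.138 on day 8, and Krt17, found in many stratified and activated epithelia, had 1.51 RPKM on day 0, 6.90 on day 4 and 0.0783 on day 8. Krt20, known from intestinal epithelium, and Krt80 had no read on day 0 and were called on day 8 at 1.832 ± 1.002 and 1.862 ± 1.495 RPKM (SD, n = 4), at least 1.68-fold and 1.57-fold higher than the level of 3 reads per day 0 library. Day 8 libraries held 2 to 12 reads of Krt20 and 0 to 12 of Krt80, so some lay under the floor. Krt5 of stratified epithelium had no read on day 0 or day 8, and its partner Krt14 at most 1.

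Markers of tissues known to carry Krt8 and Krt18 were read beside the keratins. Of 10 trophoblast markers 7 were tested and 5 were higher on day 8, none lower (median 4.17). Gata2 rose by 5.50, Gata3 by 4.64 and Ascl2 by 4.17, Hand1 had no read on day 0 and a day 8 level at least 27.1-fold higher than that of 3 reads per day 0 library, and Cdx2 had at most 2 reads on day 0 and 3.31 RPKM on day 8. The defining markers of mature trophoblast, Tpbpa and Prl3d1, had no read on either day, and Elf5 at most 2. On days 5 to 8 Ascl2, Tfap2c, Gata2, Gata3 and Hand1 were higher in double, by 1.51 to 2.41, as Krt7 and 6.81% of genes tested were. Eomes (-0.89, limma adjusted p = 0.211) and Cdx2 (0.10, adjusted p = 0.893) were not called in this window. Eomes was not called on day 8 against day 0 either (1.36). Gata3 (2.15) and Gata2 (1.19) were higher in double on days 1 to 4 too, and Ascl2 and Hand1 were not called then. Gata2 had no read in any day 4 library, and Gata3 ran from 0 to 3.40 RPKM on that day. On days 1 to 4 the Krt7 difference was negative and rested on few reads. The summed level of the 10 markers on day 8 was 253 and 181 RPKM in double and 110 and 63.9 in single, and on day 6 95.1 and 73.7 against 27.4 and 28.3. On day 0 most of the sum was Tfap2c, at 26.05 RPKM, which was higher in double on days 1 to 4 too (1.70), and on day 4 most was Ascl2, at 15.02 RPKM. The sum was at its lowest on day 5, at 7.20 to 27.3 RPKM, when Krt8 and Krt18 had already risen. Whether trophoblast cells were present, and their part in the keratin difference between labels, was not tested.

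Of 16 extraembryonic endoderm markers 11 were tested, 3 higher (Dab2, Col4a1 and Foxa2) and 1 lower (Lama1) on day 8. Dab2, an endocytic adaptor, rose from 0.0473 to 4.10 RPKM and was lower in double on days 5 to 8 by -1.18 (limma adjusted p = 0.0258). Col4a1, a basement membrane collagen chain, went from 2.04 to 37.2 RPKM, and Foxa2 from no read to 4.01. Ttr and Apoa1 had no read on either day, Afp and Sox7 none on day 8, and Gata4 and Gata6 at most 6 and 7 reads on day 8, Gata4 having up to 20 on day 0. Whether extraembryonic endoderm cells were present, and their part in the keratin levels, was not tested. The median of the list was 0.80, and 0 with genes lacking a read on either day set at their bound. The summed level was 123 to 198 RPKM on day 0 and 190 to 235 on day 8, most of it Sparc. Of 8 surface ectoderm markers 3 were tested and Wnt6 was higher, from at most 1 read on day 0 to 13.1 ± 6.5 RPKM on day 8, with a double minus single difference of 2.02 on days 5 to 8 (adjusted p = 0.00102). Trp63 had at most 3 reads and Dlx5 none, and the summed level was 4.12 to 5.62 RPKM on day 0 and 8.53 to 29.2 on day 8.

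Of 6 mesothelium markers 4 were tested, with Lrrn4 (3.19) and Wt1 higher and Msln lower (-2.65) on day 8. Wt1 had no read on day 0 and 2.01 RPKM on day 4, but 0.554 RPKM on day 8, from 1 to 12 reads. The Wt1 call was lost without X14 double (1.70) and the Msln call without X14 single (-1.69). Upk3b and Upk1b had no read on day 8, and the summed level was 4.74 to 13.4 RPKM on day 0 and 15.01 to 19.25 on day 8. Of 11 mesenchyme markers 8 were tested, 5 higher (Col1a2, Col1a1, Pdgfra, Postn and Zeb2) and 1 lower. The Postn call was lost without X14 double (1.07) and the Zeb2 call without X14 single (1.19). Col1a2, a fibrillar collagen chain, had no read on day 0 and 2.84 ± 1.04 RPKM on day 8, whereas Zeb1, a repressor of epithelial genes, fell by 3.39 and Prrx1 had no read. The list's median of 1.97 became 0.78 with genes at their bound, and its sum was 32.6 to 82.9 RPKM on day 0 and 26.5 to 68.4 on day 8. All 10 naive pluripotency markers fell by day 8 (median -3.18), Nr0b1, Prdm14, Esrrb and Nanog by 7.07, 5.15, 4.10 and 3.83. On days 5 to 8, 8 of the 10 were called higher in double, against 6.81% of genes tested, while Nanog was not called (-0.44). The mean sum was 155.4 RPKM in double against 77.78 in single on day 5, and 110.7 against 149.8 on day 8. The sum of the 10 lay between 1176 and 1546 RPKM on day 0. It lay already between 62.6 and 234 on day 4, the day on which Krt8 and Krt18 first rose.

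The genes most like the mean of Krt8 and Krt18 over the 36 libraries, by Pearson correlation of log2 values among the 10883 tested genes that averaged 10 RPM or more on some day, were AC104834.1 (0.973), Fosl2 (0.970), Arhgef16 (0.964), Arhgef5 (0.963), Fbxo32 (0.962) and Cdcp1 (0.961). The last is a transmembrane protein of epithelial cells, and Arhgef16 and Arhgef5 are guanine nucleotide exchange factors. Cdcp1 had 0.185, 2.95, 12.25 and 18.03 RPKM on days 0, 4, 6 and 8. Among the genes most like Krt7 were Lgals1 (0.947), a galectin, and Csf1 (0.933). Krt19 was closest to Igf2 (0.949), Phc2 (0.947) and H19 (0.941). Igf2 and H19 are imprinted neighbours, and H19 had 0.615, 75.9, 893 and 6525 RPKM on days 0, 4, 6 and 8. These correlations describe libraries that share days, lines and 4 culture series, and many genes change with day, so no test is given. Among the members themselves the mean of Krt8 and Krt18 correlated at 0.911 with Krt7 and 0.904 with Krt19.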

How the data were processed

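RNA of 36 libraries was sequenced as 75 bp single-end reads, which the authors trimmed with trim_galore and aligned to mm10 with tophat or hisat2 (the submitters' processing notes name TopHat2 2.0.12). They quantified genes in SeqMonk, and the values they deposited are on a log2 scale, which the study names RPM. They were read here as log2 RPKM, since what 1 read is worth differed between genes by a length, which for 51.1% of genes with a GENCODE match was within 1 base of their merged exons. Annotation version and strand setting are not given in the sources used here. Whole reads were recovered from the log2 values for 25965 of 25965 genes (within 0.02 read).

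Genes with at least 1 read per 1000000 reads (RPM) in at least 4 libraries (14612) were tested with limma 3.58.1 in R 4.3.3 (moderated linear models with a mean trend, 2-sided, Benjamini-Hochberg adjustment) on the deposited values. Label and line were fitted beside day, with separate terms for day 0, days 1 to 4 and days 5 to 8. List genes were tested against day 0 with day as the factor. Scripts were checked on simulated data. Alternatives were other scalings, filters and log scales, voom weights, left-out libraries and days, and a block.

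Replicates of a day were not alike within sampling noise. Same-numbered libraries come from the same line and label. Their deviations from the day means correlated at 0.0894, 0.115, 0.136 and 0.166 on average for replicates 1 to 4.

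The genes described, the lists and the tests were chosen with earlier results of these data known. Named genes are the members, at most 4 called genes per list and direction by fold change on day 8, defining markers at or near 0, and the genes most correlated with the members. Others were chosen after their values were seen. Lists cover 1 gene, Eppk1, that has no line in the table. Floors of 3 reads cover counting error only. One gene that the rule on correlation names is not reported here.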

Additional observations from a re-analysis of the deposited data

Results flagged for a closer look

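On the deposited scale the label difference of 2 keratins changed between the windows, with few reads in the early window. For Krt7 double minus single on days 5 to 8 less that on days 1 to 4 was 2.56 on the log2 scale (limma, adjusted p = 0.00273). It was above 0 in 8 of 8 pairs late, whereas in 6 of the 8 early pairs the library labelled double had 0 to 2 reads, which gives no direction. For Krt18 the change was 1.496 (limma, adjusted p = 0.019), with double higher in 8 of 8 pairs late. Early, double was lower in 6 of 8 pairs, and in 3 of the 5 in which both libraries held 3 reads or more. Of genes tested, 4.84% were higher in double in all 8 late pairs. The Krt18 change did not pass on voom weights, and the Krt7 change was smaller without either X18 replicate. In the early window reads were at most 12 for Krt7 and 145 for Krt18 in a library. Over the same days X-linked expression relative to autosomes was higher in double throughout, by a gap that narrowed. On day 1 the values of X14 and X18 were 0.57 and 0.45 in double and -0.58 and -0.52 in single. On day 8 they were 0.15 and -0.00 against -0.35 and -0.41. The summed trophoblast markers were higher in double from day 1 to day 8, with most of the day 0 sum in Tfap2c (26.05 RPKM). The part of either in this change was not tested. In the 36 groups of 4 libraries (4 genes on 9 days), no library stood apart by Dixon's criterion, where chance flags about 1 in 20 groups.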

How the results depend on the processing

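The log2 difference between day 8 and day 0 of all 4 keratins moved by less than its spread over libraries under every alternative run. The day of first rise was 1 in place of 2 for Krt19 when a mean 2-fold above day 0 with all same-numbered pairs higher was asked for, and also without the X14 libraries of day 0. With 1 replicate left out it ranged from 4 to 6 for Krt7, from 2 to 4 for Krt18 and from 1 to 2 for Krt19. Krt7's rise on day 4 was seen without replicate 4, X18 single, whose 1.33 RPKM is the highest of day 0. Leaving out single days and the X14 libraries of day 0 were alternatives chosen after seeing the data.

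Label fits were also run with a block for each day and line, and line fits with a block for each day and label. No call on a keratin changed with these blocks, which do not model the repeated days of a culture series. The label difference of Krt7 on days 5 to 8 was 1.39 (limma, adjusted p = 0.00652) with the block for day and line. Label differences on days 5 to 8 without 1 replicate ranged from 1.17 to 1.62 for Krt7, never past the threshold (adjusted p of 0.0614 to 0.162), and from -0.27 to 0.29 for Krt19. Those on days 1 to 4 ranged from -1.71 to -0.62 for Krt7, from -1.55 to -0.12 for Krt18 and from 0.21 to 1.23 for Krt19, and the change between windows from 1.79 to 3.33 for Krt7 and from 0.91 to 2.08 for Krt18. With 3 culture series left, a difference rests on 1 line, so these fits hold fewer samples. On days 5 to 8 Krt18 passed with log2(RPM + 1) (0.66, adjusted p = 0.0422), in X18 alone (0.79, adjusted p = 0.0328) and on voom weights (0.70), as did Krt8 on voom weights (0.65), and Krt7 did not pass in X14 alone (1.17), in X18 alone (1.62) or without day 6 (1.06). Krt19 turned to -0.27 in X14 alone and to -0.028, -0.081 and -0.22 without day 6, 7 or 8. On days 1 to 4 Krt7 did not pass with log2(RPM + 1) (-0.74, adjusted p = 0.0918) or voom weights (-0.86), nor did Krt18 on voom weights (-0.12). The Krt18 change between windows did not pass on voom weights (0.82, adjusted p = 0.176) or without day 6, 7 or 8 (1.45, 1.42 and 1.44).

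Line differences, none of which passed, turned sign easily. On days 5 to 8 they were -0.16 for Krt7, -0.062 for Krt18 and -0.27 for Krt19 in libraries labelled double alone. Without 1 replicate they ranged from -0.16 to 0.29, from -0.062 to 0.20 and from -0.27 to 0.30 for these genes. On days 1 to 4 the ranges were -1.02 to 0.064 for Krt7, -0.0048 to 0.17 for Krt8, -0.94 to 0.50 for Krt18 and -0.70 to 0.32 for Krt19. For the change between windows they were -0.22 to 1.31, -0.066 to 0.39, -0.30 to 0.87 and -0.026 to 0.44, and Krt8 had -0.016 with log2(RPM + 1) and -0.17 on voom weights.

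Of 24 list genes called higher on day 4, 15 were called when only the 2 days were compared and 14 to 34 without 1 replicate. Without the X14 libraries of day 0, 10 list genes were called lower on day 4 in place of 16, and 3131 of all genes higher in place of 1785. All-gene calls higher on day 4 were 1164 with only the 2 days compared and 971 to 2614 without 1 replicate. With a mean of at least 10 RPM, which tests fewer genes, 502 were lower on day 4 and 2193 higher and 1029 lower on day 8. Of 45 list genes named for a call on day 8, 39 kept it under every alternative that tested them and none turned sign. Without the X14 libraries of day 0 Klf5 (-0.89), Lama1 (-1.68), Wt1 (1.74), Msln (-2.18), Postn (1.52) and Zeb2 (1.41) lost it. Higher calls were 68.1% of day 8 calls, 53.4% with scaling to the 75th percentile and 50.4% with quantile normalization. At this depth a keratin level under 3 reads, as in some libraries of days 0 to 3, gives no direction, and the cause of the other changes was not tested.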
